A study of Mus musculus with 24 samples.

Results

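Livers of mice that lacked GPR120 were compared with livers of wild-type mice after both had been kept on a high-fat diet (HFD), to ask how loss of the receptor changed gene expression in the liver of mice fed much fat. GPR120, encoded by Ffar4, is a G protein-coupled receptor at the cell surface that responds to long-chain fatty acids. The liver takes up fatty acids and sugar, makes triglycerides, and either burns them in mitochondria, exports them in lipoproteins or stores them in lipid droplets. Under a fat-rich diet the droplets can grow until the organ becomes fatty, and genes of droplet coating and of fat synthesis are then commonly raised.

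The comparison held 6 of the 24 arrays of the series. GPR120 knockout (KO) mice 427, 428 and 429 on HFD formed the first group and wild-type (WT) mice 546, 547 and 560 on HFD the second, chosen by tissue, genotype and diet as labelled. KO mice 718, 719 and 720 and WT mice 686, 687 and 690 on normal diet (ND) gave the same genotype comparison without the fat-rich diet, and the epididymal fat of the HFD mice gave it in another tissue. All the mice had a mixed 129/Sv and C57BL/6 background. The labels do not state which stretch of Ffar4 was deleted, the mice's age or sex, how long each diet was fed, or from which strain the DNA around Ffar4 came. Sex follows only from the tissue, since every mouse also gave epididymal fat, a depot of males. Affymetrix expression arrays were read once per mouse and tissue, so each value of n = 3 is 3 mice, and this number limits the precision.

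Signals are given in linear intensity units, and differences as log2 of KO over WT ± SE from a limma fit of all 12 liver arrays. A gene was called, and is said to have risen or fallen, when its Benjamini-Hochberg adjusted p was under 0.05 among 11125 tested genes. Where a group's mean lay under the filter level of 13.0 units the fold change is given as a lower bound, the brighter mean over the dimmer one with its arrays raised to that level. The liver arrays had medians of 13.5 to 18.8 units, and within a group any array reached a Spearman's rho of 0.94 to 0.954 with its fellows. The hepatocyte markers Alb, Apoa1, Apob, Ttr and Ahsg were among the brightest genes, and their summed signal was 43750 to 49470 in KO livers and 53340 to 60700 in WT livers on HFD, without overlap. The adipocyte markers Adipoq, Lep and Retn summed to 11.1 to 22.9 units in KO livers and 16.9 to 25.9 in WT livers. The Actb 3'/5' signal ratio, a measure of RNA quality or labelling, was log2 1.69 to 1.72 on KO arrays and 1.99 to 2.09 on WT arrays on HFD. On ND it was log2 1.24 to 1.34 on KO arrays and 1.11 to 1.25 on WT arrays. The ratio thus differed between the diets, and on HFD between the genotypes. Its part in the results, including the differences between diets, was not tested. On HFD the erythroid markers Hba-a1, Alas2 and Slc4a1 summed to 208.3 to 241.9 units in KO livers and 154.8 to 177.7 in WT livers. That sum was nearly all Alas2, with means of 206.3 and 150.3 units (adjusted p = 0.276). Slc4a1 went the other way, and neither it nor Hba-a1 passed the filter. The exocrine pancreas markers Cpa1, Cpb1, Ctrb1 and Cela2a, none of which passed the filter, summed to 14.9 to 20.6 and 21.1 to 36.6 units in KO and WT livers.

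Ffar4 was read by a single probe set that did not pass the filter in liver. It gave 18.3, 13.5 and 15.98 units in the KO livers, against 0.55, 1.19 and 1.63 units in the WT livers on HFD. The KO values were the higher ones and just above the filter level, while the WT values were near the lowest of the array. The KO mean was thus at least 1.22-fold higher (adjusted p = 0.0336 when fitted among 18193 unfiltered genes). In the fat of the same mice the probe set ran the other way, with 26.5, 30.5 and 23.1 units in KO mice and 97.3, 126.2 and 171.5 units in WT mice. No label says whether it reads the deleted stretch, so the liver values check nothing about the labels.

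Of the 11125 genes, 415 were higher in KO livers (3.73%) and 332 were lower (2.98%), 6.71% in all. Of the called genes 195 were at least 2-fold higher and 62 at least 2-fold lower (2.31% of all tested genes together), and the median difference of all tested genes was -0.03. The 6 arrays separated the groups without overlap for 29.3% of all tested genes and for 745 of the 747 called ones (99.7%). Where separation of the groups is given below for called genes, it thus adds little to the call. Leaving out KO mouse 427 left 167 higher and 111 lower, leaving out KO mouse 429 left 244 and 188, leaving out WT mouse 546 left 241 and 144, and leaving out WT mouse 547 left 251 and 153. Without KO mouse 428 there were 319 higher and 234 lower genes, and without WT mouse 560 there were 413 and 270. An exact permutation test of 3 against 3 arrays cannot go below p = 0.1, so the calls rest on the fit across genes.

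**Figure D1:**
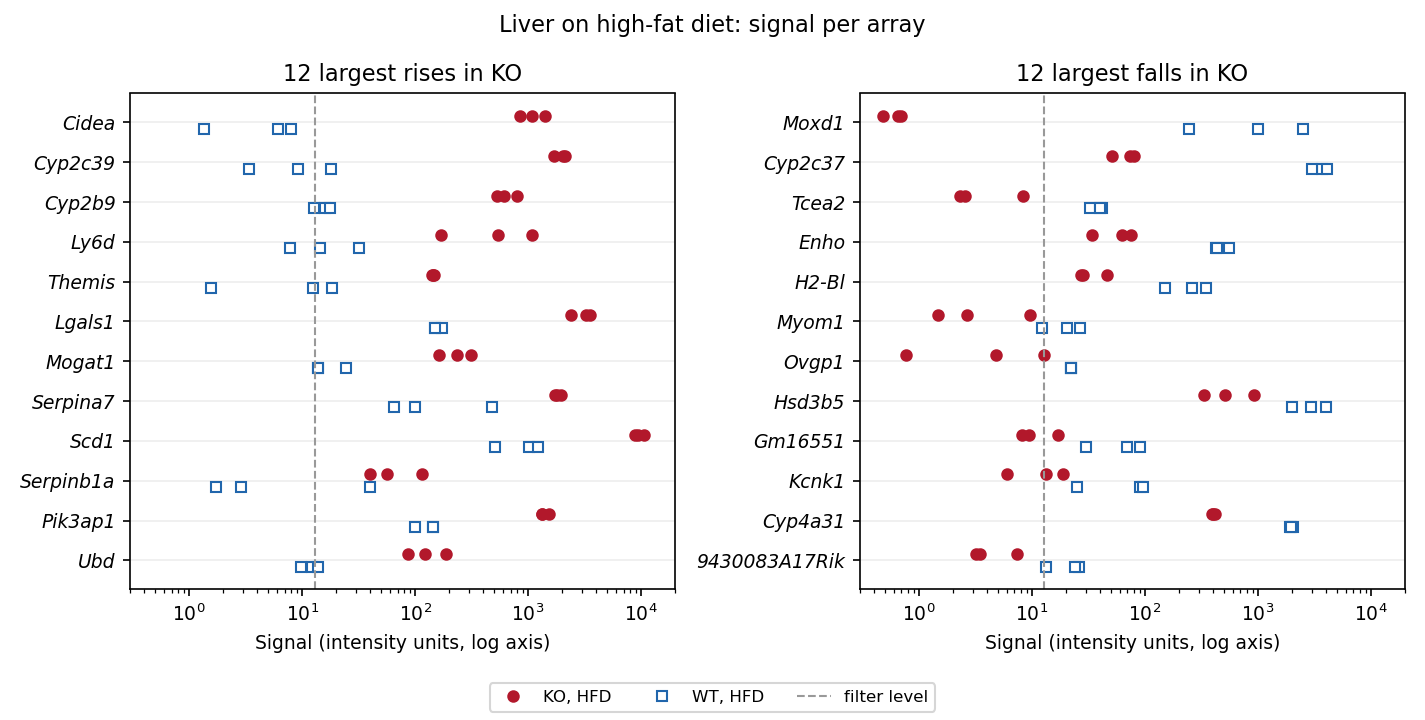
Signal of the 12 genes with the largest rises (left panel) and the 12 with the largest falls (right panel) in livers on high-fat diet, one point per array on a log axis in intensity units, KO as filled circles and WT as open squares. All 24 genes were picked from called genes whose groups do not overlap, so their separation follows from the choice. Serpinb1a nearly overlaps, and many genes lie under the filter level of 13.0 units (dashed line) in one group.

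The 12 largest rises held genes of lipid storage, cytochrome P450 enzymes and genes best known from immune cells. Cidea, which encodes a protein that fuses lipid droplets, had 1402, 1072 and 844 units in KO livers, against 6.1, 7.9 and 1.34 units in WT livers. All 3 KO livers thus had a strong signal and all 3 WT livers one under the filter level, a rise of at least 83.6-fold (adjusted p = 0.000211). Cyp2c39, a cytochrome P450 gene whose product acts on retinoic acid and other lipids, had 2124, 2053 and 1682 units in KO livers and 17.9, 3.37 and 9.14 units in WT livers, at least 135-fold (adjusted p = 1.74e-07). Cyp2b9, another cytochrome P450 gene, had 798, 535 and 608 units in KO livers and 16.04, 17.7 and 12.8 units in WT livers (41.5-fold, adjusted p = 3.57e-05). For each of these genes the lowest KO value was far above the highest WT value, and the dim WT values of Cidea and Cyp2c39 spread more widely than the KO values.

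Lgals1 encodes galectin 1, a sugar-binding protein, and had 3224, 2419 and 3521 units in KO livers and 150.2, 174.5 and 148.7 units in WT livers (19.2-fold, adjusted p = 2.51e-07). Ly6d, a small surface protein gene of the Ly6 family, had 1085, 168.2 and 543.5 units in KO livers and 7.8, 14.3 and 31.9 units in WT livers (30.3-fold, adjusted p = 0.00034), with KO mouse 428 the lowest of the 3. Serpina7, the gene of thyroxine-binding globulin, had 1814, 1938 and 1734 units in KO livers and 99.7, 479.3 and 64.5 units in WT livers (12.6-fold, adjusted p = 0.00695). WT mouse 547 stood above the other WT mice for Serpina7, yet well under every KO mouse. Themis, a gene of T cell development, was at 147.3, 145.3 and 142.3 units in KO livers and 12.4, 18.5 and 1.55 units in WT livers, at least 9.95-fold (adjusted p = 0.00861). Of 8 tested lymphocyte genes 0 rose and 0 fell (6.71% of all genes were called). The lymphocyte markers Cd3e, Cd3g, Cd8a, Cd79a and Nkg7 summed to 35.7 to 50.8 units in KO livers and 28.9 to 64.7 in WT livers. Ubd, the ubiquitin-like modifier FAT10, was at 186.1, 85.8 and 122.2 units in KO livers and 12.1, 13.8 and 9.86 units in WT livers, at least 9.44-fold (adjusted p = 0.000131). Serpinb1a, an inhibitor of neutrophil proteases, had 116.2, 56.7 and 39.63 units in KO livers and 2.9, 1.72 and 39.56 units in WT livers. WT mouse 560 lay just under the lowest KO mouse, and the Serpinb1a call (adjusted p = 0.0358) was lost under 8 alternatives, at 0.146 without KO mouse 427, 0.0712 without KO mouse 428, 0.0584 without KO mouse 429, 0.123 without WT mouse 546 and 0.126 without WT mouse 547.

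The 12 largest falls were led by Moxd1, a gene related to dopamine beta-hydroxylase. It had 0.48, 0.69 and 0.65 units in KO livers and 2523, 1006 and 245 units in WT livers, at least 65.9-fold lower (adjusted p = 8.62e-06). The KO values were at the bottom of the array, and the WT values themselves spread widely, with WT mouse 560 the lowest. Cyp2c37, a cytochrome P450 gene close to Cyp2c39 in sequence, had 73.6, 80.8 and 50.9 units in KO livers and 3691, 3008 and 4120 units in WT livers (53.3-fold lower, adjusted p = 6.26e-09). Enho encodes the secreted peptide adropin and had 63.4, 34.2 and 76.0 units in KO livers and 553.9, 431.1 and 440.1 units in WT livers (8.60-fold lower, adjusted p = 1.30e-05). Of its other probe sets 1 gave -3.15 ± 0.44 and 1 gave 0.76 ± 0.53, which did not pass.

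Cyp4a31, a fatty acid omega-hydroxylase gene of the type driven by the lipid sensor PPAR-alpha, had 418.9, 401.0 and 393.7 units in KO livers and 2059, 1936 and 1984 units in WT livers (4.93-fold lower, adjusted p = 1.74e-07). Hsd3b5, a steroid-metabolizing enzyme gene of male mouse liver, had 332.4, 929.4 and 508.1 units in KO livers and 4035, 2971 and 2006 units in WT livers (5.35-fold lower, adjusted p = 0.00628). H2-Bl, a class I histocompatibility gene, had 45.9, 27.2 and 28.5 units in KO livers and 262.6, 344.9 and 149.6 units in WT livers (7.25-fold lower, adjusted p = 0.000821). These 3 genes kept a measurable signal in KO livers. The other 6 falls were of dim genes, whose KO means were all under the filter level. They were Tcea2 (a transcription elongation factor gene, at least 2.92-fold lower), Gm16551 (at least 4.07-fold), Kcnk1 (a potassium channel gene, at least 4.05-fold), Ovgp1 (at least 1.72-fold), 9430083A17Rik (at least 1.58-fold) and Myom1 (a sarcomere protein gene, at least 1.46-fold). Averaged over its probe sets Tcea2 was at -1.25 (adjusted p = 0.187). Myom1 lost the call without KO mouse 427 or 428 or WT mouse 547 or 560 (adjusted p = 0.0869 to 0.117), Ovgp1 without any array but KO mouse 428 (0.0798 to 0.108), and Kcnk1 without KO mouse 429 or WT mouse 546 or 560 (0.0585 to 0.0772).

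Genes that make and store fat were among those that rose in KO livers. Of 26 tested genes of fatty acid and triglyceride synthesis 8 rose and 0 fell, 30.8% against 3.73% of all genes, with a median difference of 0.25. Scd1, the stearoyl-CoA desaturase that makes monounsaturated fatty acids, had 9339, 10588 and 8879 units in KO livers and 509.0, 1027 and 1231 units in WT livers (11.1-fold, adjusted p = 0.000191). Mogat1, an acyltransferase that builds diacylglycerol, had 235.9, 161.3 and 313.3 units in KO livers and 13.9, 24.7 and 13.8 units in WT livers (13.6-fold, adjusted p = 5.35e-05). Me1, malic enzyme, which makes NADPH for fatty acid synthesis, had 1173, 916.1 and 951.2 units in KO livers and 152.8, 127.2 and 95.6 units in WT livers (8.19-fold, adjusted p = 1.94e-05). For each of these the lowest KO liver was several times above the highest WT liver. A second probe set of Scd1 rose by 2.22 ± 0.45.

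Pklr, liver pyruvate kinase, rose by 1.22 ± 0.24. The list's other 4 risen genes, named after their values were seen, were Thrsp at 2.35 ± 0.63, Fasn, fatty acid synthase, at 1.27 ± 0.35, Srebf1, the transcription factor SREBP1, at 0.96 ± 0.22, and Agpat2 at 0.53 ± 0.14. Pklr lost the call without KO mouse 427 (adjusted p = 0.0527), Srebf1 without KO mouse 427 or 428 (0.0667 and 0.0727), Thrsp and Fasn without any array but WT mouse 546 (0.0571 to 0.192), and Agpat2 without any array but KO mouse 429 (0.0568 to 0.158). In all 3 of the list were called without KO mouse 427, 4 without KO mouse 428 and 5 without WT mouse 547. On ND the list had 3 genes higher and 1 lower.

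Lipid droplet genes rose in 6 of 18 and fell in 0, 33.3% against 3.73% of all genes, and 5 were called without each of the 6 arrays in turn. Plin4, a perilipin that coats droplets, had 368.5, 359.4 and 182.9 units in KO livers and 19.9, 70.5 and 32.8 units in WT livers (8.07-fold, adjusted p = 0.000743). Fitm1, a membrane protein that helps droplets form, had 671.1, 862.0 and 583.7 units in KO livers and 213.0, 168.1 and 189.3 units in WT livers (3.68-fold, adjusted p = 0.00223). Cidec, a droplet protein related to Cidea and abundant in adipocytes, had 206.0, 190.6 and 203.9 units in KO livers and 52.3, 36.6 and 27.5 units in WT livers (5.34-fold, adjusted p = 0.00578). The KO livers were the higher group for all 3 genes. Of 4 tested genes typical of adipocytes 2 rose, Cidec and Fabp4, and 0 fell, 50% against 3.73% of all genes. Adipoq, Lep and Retn did not pass the filter, and the part of adipocyte RNA was not tested. Hsd17b13, an enzyme of the droplet surface, rose by 0.68 ± 0.09 (adjusted p = 0.000906). Its other tested probe set gave 0.34 ± 0.27 and did not pass (adjusted p = 0.522). Pparg, the transcription factor of fat storage and the last of the 6, was named after its values were seen and rose by 1.36 ± 0.36 (adjusted p = 0.038). Pparg lost the call without any of the 6 arrays (adjusted p = 0.0646 to 0.123). The median of the list was 0.19. On ND 5 genes of the list were higher and 2 lower, 27.8% and 11.1% against 2.22% and 2.49% of all genes.

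**Figure D2:**
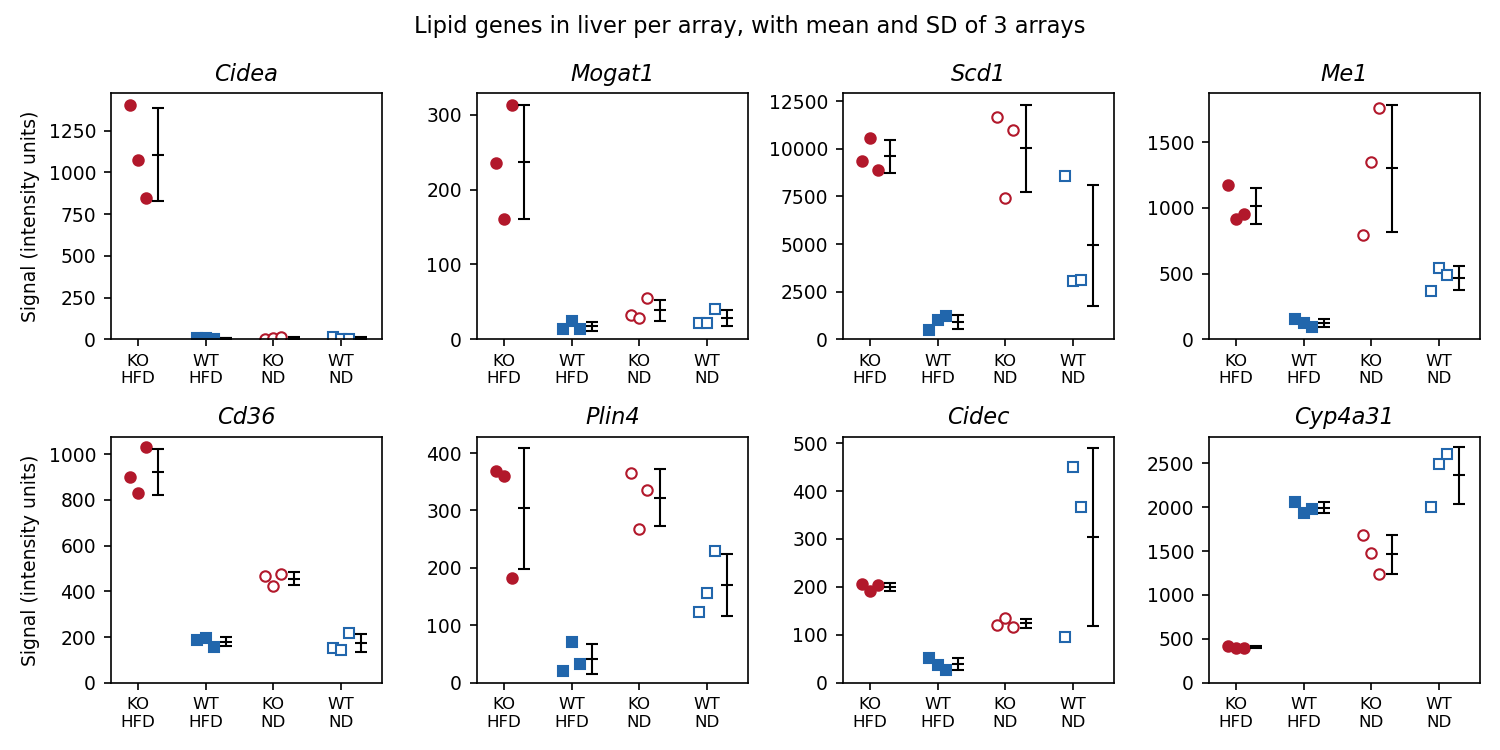
Signal of 8 genes of lipid metabolism in livers, one point per array in linear intensity units, for KO (circles) and WT (squares) mice on high-fat diet (filled) and on normal diet (open), with error bars of the mean ± SD of 3 arrays. Cidea and Mogat1 are high in the KO livers on high-fat diet and low in the other 3 groups, Scd1, Me1 and Plin4 are lowest in WT livers on high-fat diet, and Cyp4a31 is lowest in KO livers on high-fat diet.

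Genes that bring fatty acids into the cell rose as well. Of 22 genes of fatty acid uptake and export 4 rose and 0 fell, 18.2% against 3.73% of all genes (median 0.04). On ND 3 of the list were higher and 1 lower, 13.6% and 4.55% against 2.22% and 2.49% of all genes. Cd36, a fatty acid transporter, had 899.3, 830.8 and 1030 units in KO livers and 186.3, 193.6 and 157.3 units in WT livers (5.14-fold, adjusted p = 1.19e-06). Vldlr, the receptor of very-low-density lipoprotein, rose by 2.64 ± 0.34, and Fabp4, a fatty acid carrier of adipocytes and macrophages, by 1.63 ± 0.30. Another Fabp4 probe set gave 1.79 ± 0.40 and passed, while those at 1.02 ± 0.59 and 1.69 ± 0.86 did not pass. Apoc2, the cofactor of lipoprotein lipase, rose by 0.46 ± 0.13, and it had adjusted p = 0.11 when KO mouse 428 was left out, 0.154 for KO mouse 429, 0.133 for WT mouse 547 and 0.115 for WT mouse 560.

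Among 34 fatty acid oxidation genes 6 fell and 2 rose, 17.6% lower against 2.98% of all genes, with a median of -0.06. Beside Cyp4a31, Cyp4a14, another omega-hydroxylase gene, fell by 0.59 with 5627, 7172 and 6131 units in KO livers and 9045, 8808 and 10503 units in WT livers (adjusted p = 0.0082). Angptl4, a secreted inhibitor of lipoprotein lipase, fell by 0.79 (adjusted p = 0.00233), but averaged over its probe sets it was at -0.27 (adjusted p = 0.426). The other 3 falls, named after their values were seen, were Cpt1a, the entry enzyme of mitochondrial fatty acid oxidation, at -0.52 ± 0.10, Ehhadh, of peroxisomal oxidation, at -0.71 ± 0.15, and Acot1, an acyl-CoA thioesterase, at -0.88 ± 0.24. The 2 rises were Aldh3a2, a fatty aldehyde dehydrogenase, at 0.89 ± 0.17 and Pdk4, a kinase that holds back glucose oxidation, at 1.43 ± 0.37. The mean of the Cpt1a probe sets had adjusted p = 0.449, and the Cpt1a call was lost without KO mouse 427 (0.0541). Acot1 lost its call without KO mouse 427 (0.173), KO mouse 429 (0.105), WT mouse 547 (0.141) or WT mouse 560 (0.0781), and Pdk4 without every array but WT mouse 547 (0.0811 to 0.117), so that the list had 1 gene higher without any one of those 5.

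In glucose metabolism 5 of 22 genes rose and 1 fell, 22.7% higher against 3.73% of all genes (median 0.28). The list also had 5 genes higher and 1 lower on ND, 22.7% higher against 2.22% of all genes. Genes of the pentose phosphate pathway, which makes NADPH, were Taldo1 at 0.79 ± 0.10 (adjusted p = 0.000658), Tkt at 0.97 ± 0.16 and Pgd at 1.10 ± 0.24. Gbe1, the glycogen branching enzyme, rose by 1.24 ± 0.25. Khk, fructokinase, rose by 0.69 ± 0.16 and Gys2, liver glycogen synthase, fell by 0.70 (both named after their values were seen). Leaving out KO mouse 427 left 2 of the list higher. Gbe1 lost its call without that mouse (adjusted p = 0.0563), Pgd without it or WT mouse 547 (0.0879 and 0.0658), Khk without any array but WT mouse 547 (0.0522 to 0.0958) and Gys2 without any but WT mouse 560 (0.0525 to 0.131). The mean of the Tkt probe sets had adjusted p = 0.0581. Of 20 cholesterol synthesis genes 2 rose and 0 fell, 10% higher against 3.73% of all genes. They were Hmgcs1, which rose by 1.33 ± 0.36, and Tm7sf2, which rose by 0.67 ± 0.17, and neither was called without KO mouse 427 (0.184 and 0.14), KO mouse 428 (0.12 and 0.0953) or WT mouse 547 (0.0926 and 0.106). Hmgcs1 was also lost without WT mouse 560 (0.115) and Tm7sf2 without WT mouse 546 (0.114).

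**Figure D3:**
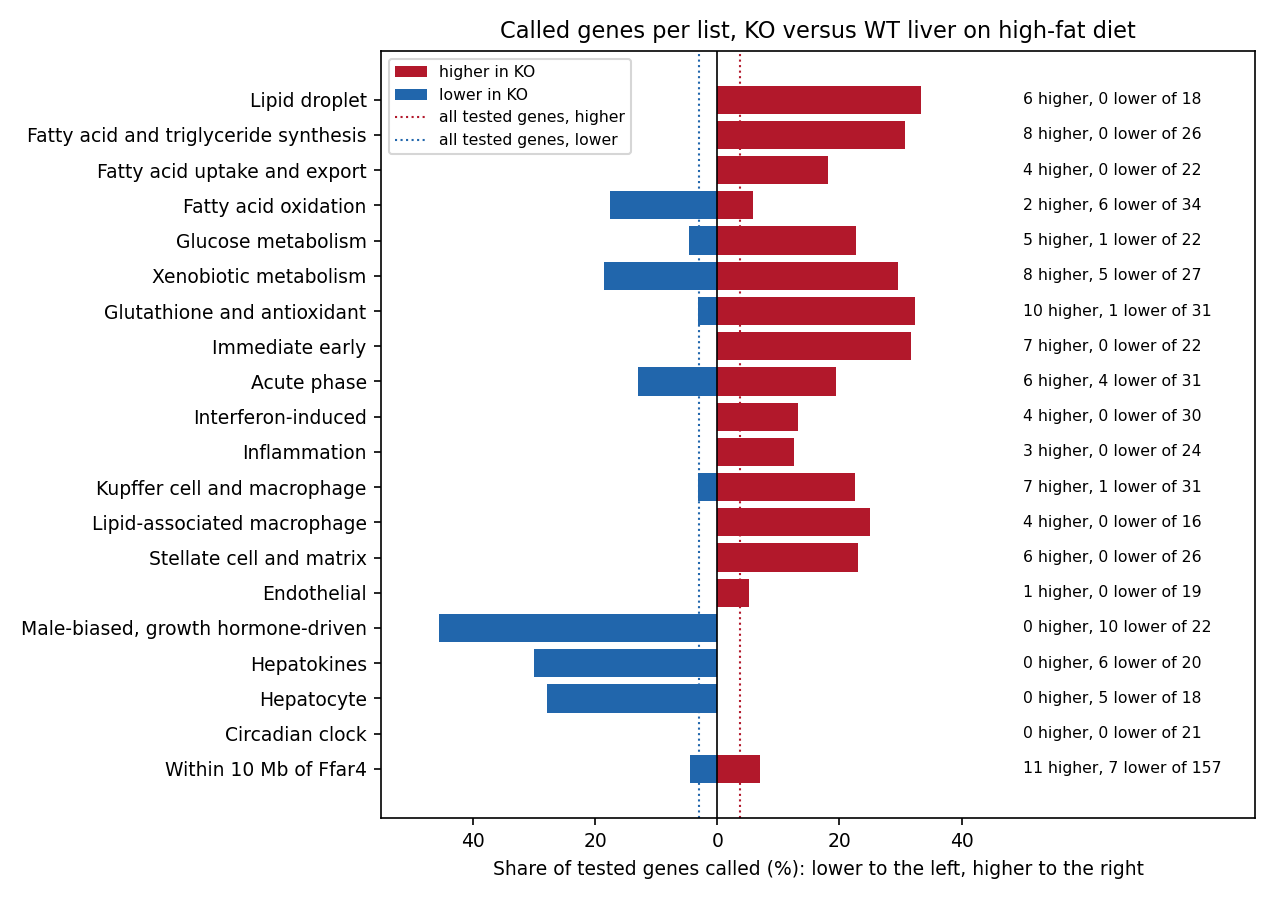
Share of the tested genes of 20 lists that were called higher (right of 0) or lower (left of 0) in KO than in WT livers on high-fat diet, in percent, with the counts beside the bars. Dotted lines mark the 3.73% called higher and 2.98% called lower among all 11125 tested genes. Lipid storage, glutathione and immediate early lists lie to the right, and the male-biased, hepatokine and hepatocyte lists to the left.

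Genes of xenobiotic metabolism moved in both directions. Of 27 genes of this list, which holds targets of the nuclear receptors CAR and PXR, 8 rose and 5 fell, 29.6% and 18.5% against 3.73% and 2.98% of all genes (median 0.05). Besides Cyp2b9, Cyp2c39 and Cyp2c37, Cyp2c38 had 1177, 1106 and 992 units in KO livers and 131.2, 138.7 and 185.2 units in WT livers (7.26-fold, adjusted p = 7.40e-07). Cyp2c50 had 2152, 2801 and 1631 units in KO livers and 7659, 7118 and 7983 units in WT livers (3.54-fold lower, adjusted p = 0.00174). Cyp2c54, named after its values were seen, fell by 1.76 ± 0.34. Neighbouring genes of 1 family thus moved in opposite directions, Cyp2c39 and Cyp2c38 up and Cyp2c37, Cyp2c54 and Cyp2c50 down. They are close copies of each other, and how far their probe sets read each other was not tested. The list had 3 genes lower without any one of KO mice 427 and 429 and WT mice 546 and 547.

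Of 28 bile acid genes 1 rose and 2 fell, 3.57% and 7.14% against 3.73% and 2.98% of all genes. Abcc3, an export pump, rose by 0.72 ± 0.13 (adjusted p = 0.00731), while Slco1a1 and Cyp7b1, 2 of the male-biased genes, fell.

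These Cyp2c genes lie on chromosome 19 within 2 Mb of Ffar4, Cyp2c39 at 1.25, Cyp2c38 at 1.29, Cyp2c37 at 1.90, Cyp2c54 at 1.94 and Cyp2c50 at 1.99 Mb from it in build GRCm38.p6, and the start regions of the 2 that rose and of Cyp2c37 and Cyp2c50, of the 3 that fell, are shown so that they can be set side by side. Each window runs from 250 bases before to 50 after a RefSeq start, 5′ to 3′ on the gene's strand, and capitals mark CAAAGT, a site bound by the liver factor HNF4, searched on both strands. RefSeq gives 2 starts for Cyp2c39, and both are shown.
Cyp2c39, first start (chr19:39347096-39347395, plus strand): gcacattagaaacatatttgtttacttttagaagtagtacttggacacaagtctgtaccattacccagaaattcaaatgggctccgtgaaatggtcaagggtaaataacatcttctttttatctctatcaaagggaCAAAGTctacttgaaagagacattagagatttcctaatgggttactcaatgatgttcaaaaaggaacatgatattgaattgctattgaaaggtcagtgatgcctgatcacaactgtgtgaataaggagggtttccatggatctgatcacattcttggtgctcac
Cyp2c39, second start (chr19:39510572-39510871, plus strand): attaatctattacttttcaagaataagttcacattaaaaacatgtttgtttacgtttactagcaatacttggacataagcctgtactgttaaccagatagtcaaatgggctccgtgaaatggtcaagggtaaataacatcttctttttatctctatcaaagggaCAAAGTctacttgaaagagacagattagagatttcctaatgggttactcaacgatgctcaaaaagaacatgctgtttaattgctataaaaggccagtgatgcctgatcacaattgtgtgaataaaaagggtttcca
Cyp2c38 (chr19:39463026-39463325, minus strand): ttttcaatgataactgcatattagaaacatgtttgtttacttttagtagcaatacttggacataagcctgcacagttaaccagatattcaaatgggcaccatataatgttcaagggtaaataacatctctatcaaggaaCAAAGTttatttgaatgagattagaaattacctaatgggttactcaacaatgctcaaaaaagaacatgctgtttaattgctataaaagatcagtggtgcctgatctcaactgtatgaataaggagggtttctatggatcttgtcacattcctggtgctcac
Cyp2c37 (chr19:39992174-39992473, plus strand): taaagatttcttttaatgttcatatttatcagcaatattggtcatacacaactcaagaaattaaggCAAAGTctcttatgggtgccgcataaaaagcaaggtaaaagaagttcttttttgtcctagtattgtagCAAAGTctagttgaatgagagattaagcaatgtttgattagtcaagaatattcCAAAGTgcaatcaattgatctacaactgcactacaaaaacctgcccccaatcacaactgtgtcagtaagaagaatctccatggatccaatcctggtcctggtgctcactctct
Cyp2c50 (chr19:40089429-40089728, plus strand): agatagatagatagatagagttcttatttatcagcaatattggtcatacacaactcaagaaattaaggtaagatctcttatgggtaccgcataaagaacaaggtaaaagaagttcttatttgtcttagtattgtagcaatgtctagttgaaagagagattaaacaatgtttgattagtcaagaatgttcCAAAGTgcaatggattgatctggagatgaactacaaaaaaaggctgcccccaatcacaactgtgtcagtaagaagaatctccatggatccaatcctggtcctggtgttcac
In a global alignment the Cyp2c38 window matched the 2 Cyp2c39 windows in 78.1% and 72.9% of columns, and the Cyp2c37 and Cyp2c50 windows matched each other in 86.6%. Between the windows of genes that rose and those of Cyp2c37 and Cyp2c50, which fell, 52.7 to 62.1% of columns matched. CAAAGT occurs 3 times in the Cyp2c37 window and 1 time in each of the others, and 14.4% of 32851 windows hold it. The longer HNF4 consensus CAAAGTCCA, held by 0.475% of windows, occurs in none of the Cyp2c windows shown.

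Of 157 tested genes within 10 Mb of Ffar4, 11 rose and 7 fell, 11.5% against 6.71% of all genes, and on ND 10 were higher and 11 lower, 13.4% against 4.71%. The 6 called genes of largest difference were 1.25 to 6.30 Mb to one side of Ffar4. They were Cyp2c39, Cyp2c37, Scd1 at 6.30 Mb, Pik3ap1 at 3.18 Mb, Cyp2c38 and Cyp2c50. On the other side, at 1.48 Mb, Hectd2os, named after its values were seen, rose on HFD by 1.77 ± 0.33 (adjusted p = 0.00754). It was at least 4.43-fold higher on ND (adjusted p = 0.00129), and Cyp2c54 was next in size among called genes. Frat2 at -1.86 ± 0.60 (adjusted p = 0.0816) and Cyp26a1 at 1.78 ± 0.86 (adjusted p = 0.232) were as large as Hectd2os but not called. Cyp26a1 lay on the same side as Hectd2os and closer to Ffar4. Pik3ap1, an adaptor that links receptors to PI3 kinase in B cells and macrophages, had 1338, 1336 and 1523 units in KO livers and 99.6, 143.4 and 145.1 units in WT livers (11.0-fold, adjusted p = 1.74e-07). It was as distinct on ND (log2 3.22, adjusted p = 5.02e-07), and over the mean of its probe sets it was at 1.55 (adjusted p = 0.112) on HFD. Since the mice had a mixed background, an effect of the deletion and one of linked DNA from a donor strain cannot be told apart for these genes near Ffar4. For genes elsewhere, a difference in background between KO and WT mice cannot be told apart from the deletion either. Of all tested genes on chromosome 19, 9.76% were called on HFD, and on chromosome 17 the share was 10.1%. Leaving out KO mouse 427 left 7 of the genes within 10 Mb higher and 3 lower, and leaving out WT mouse 546 left 4 lower.

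**Figure D4:**
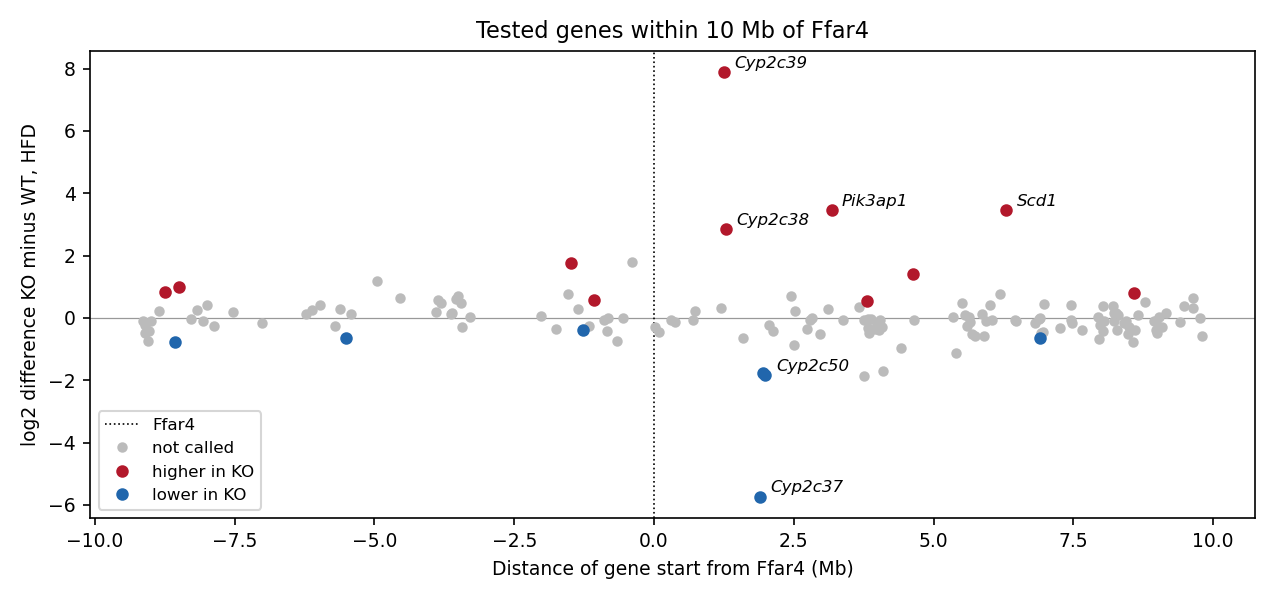
Log2 difference of KO minus WT livers on high-fat diet against the distance from Ffar4 in Mb, for the 157 tested genes within 10 Mb, called genes in colour. Cyp2c39, Cyp2c38, Pik3ap1 and Scd1 stand far above 0 and Cyp2c37 far below it, all on the same side of Ffar4, while most other genes lie near 0.

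Glutathione and antioxidant genes rose in 10 of 31 and fell in 1, 32.3% against 3.73% of all genes, with a median of 0.40. Gstm2 and Gstm3, glutathione transferases that detoxify reactive compounds, were the clearest. Gstm2 had 739.3, 432.9 and 494.7 units in KO livers and 116.8, 106.7 and 177.7 units in WT livers (4.15-fold, adjusted p = 0.000191). Gstm3 had 1131, 274.5 and 454.9 units in KO livers and 63.1, 41.3 and 69.2 units in WT livers (9.22-fold, adjusted p = 0.00136). KO mouse 427 was highest for both, and the groups stayed apart. Mgst3, a microsomal transferase, rose by 1.54 ± 0.19 (1.09 with adjusted p = 0.0845 over the mean of its probe sets) and Gpx4, which reduces lipid peroxides, by 0.47 ± 0.09. Gstp1, the 1 that fell (by 0.45), was named after its values were seen and lost the call without KO mouse 427 (0.064) or WT mouse 546 (0.0561). The list had 5 genes higher without KO mouse 427 and 6 without WT mouse 547. Gstm genes are close copies, and how far their probe sets read each other was not tested.

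Among carboxylesterases, enzymes that cleave lipid esters and drugs, 3 of 11 rose and 1 fell (27.3% higher against 3.73% of all genes). Ces1g had 884.5, 892.9 and 648.6 units in KO livers and 116.5, 99.97 and 238.6 units in WT livers (5.69-fold, adjusted p = 0.00025). Ces2e rose by 1.47 ± 0.17 and Ces2g by 0.62 ± 0.16, while Ces2a fell by 0.53. Ces1g and Ces2e were also higher on ND (3.56 and 1.37, adjusted p = 2.36e-05 and 0.00086). The Ces2g call was lost without KO mouse 427 (0.146), KO mouse 429 (0.107), WT mouse 547 (0.0901) or WT mouse 560 (0.0939), and that of Ces2a without any array but KO mouse 428 (0.0588 to 0.198).

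Genes that are higher in male than in female mouse liver, and follow pulsed growth hormone, fell. Of 22 tested 10 fell and 0 rose, 45.5% against 2.98% of all genes, with a median of -0.50, and 7 to 10 were called without each array in turn. Besides Hsd3b5, Slco1a1, a bile acid and steroid uptake carrier, had 706.7, 1506 and 854.4 units in KO livers and 2796, 2689 and 2339 units in WT livers (2.68-fold lower, adjusted p = 0.00335). Cyp7b1, an oxysterol hydroxylase, had 2346, 2968 and 4588 units in KO livers and 9554, 6179 and 7253 units in WT livers (2.38-fold lower, adjusted p = 0.00898). C6, a complement component, fell by 0.90 and Susd4, a complement regulator, by 0.96. For all of these the highest KO liver was under the lowest WT liver. Egfr, the epidermal growth factor receptor, named after its values were seen, fell by 1.83 (adjusted p = 0.0183), a call lost without KO mouse 427 or 428 or WT mouse 546 or 547 (0.0523 to 0.0844). Socs2, a growth hormone target and feedback inhibitor, fell by 1.96 (adjusted p = 0.0456) but had adjusted p = 0.291 over the mean of its probe sets, and it lost the call without KO mouse 427 (0.146), KO mouse 428 (0.127), WT mouse 546 (0.148) or WT mouse 560 (0.103). Of 13 genes higher in female mouse liver 2 rose, Cyp2b9 and Cd36, and 1 fell, Cyp4a14 (15.4% and 7.69% against 3.73% and 2.98% of all genes). On ND 1 male-biased gene was higher and 0 were lower.

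Of 17 genes of growth hormone and insulin-like growth factor signalling 1 rose and 2 fell, 5.88% and 11.8% against 3.73% and 2.98% of all genes. Igfbp2, a binding protein secreted by the liver, had 1410, 2361 and 1736 units in KO livers and 6061, 5315 and 7047 units in WT livers (3.40-fold lower, adjusted p = 0.000325). Igfbp3, the main carrier in blood, rose by 1.25 ± 0.23, and Socs2 was the other fall. Hepatokines, proteins by which the liver signals to other organs, fell in 6 of 20 and rose in 0, 30.0% against 2.98% of all genes (median -0.14). They were Enho, Igfbp2, Angptl4, Apom, the apolipoprotein that carries sphingosine 1-phosphate (-0.83 ± 0.11), and, named after their values were seen, Fetub (-0.79 ± 0.12) and Ahsg, fetuin A (-0.41 ± 0.11). Apom had 3365, 3851 and 3876 units in KO livers and 6589, 6168 and 6890 units in WT livers.

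Of 18 genes typical of hepatocytes 5 fell and 0 rose, 27.8% against 2.98% of all genes, by small amounts. They were Cps1, of the urea cycle (-0.58 ± 0.11), Hpd, of tyrosine breakdown (-0.47 ± 0.11), Ahsg, Fgb (-0.34 ± 0.09) and Ttr (-0.34 ± 0.09, named after its values were seen). In bulk tissue, fewer cells of a type and less RNA per cell cannot be told apart. The count was 1 without KO mouse 427, WT mouse 546 or WT mouse 560 and 2 without any of the other 3 arrays, and Ahsg, Fgb and Ttr were lost without any one array (0.0523 to 0.18). Quantile normalization left Cps1 alone called, with Fgb at -0.06, Ttr at -0.06, Ahsg at -0.22 and Hpd at -0.23. Of 17 genes of the periportal zone, where urea is made, 4 fell and 1 rose (23.5% and 5.88% against 2.98% and 3.73% of all genes), among them Asl (-0.94 ± 0.16) and Arg1 (-0.55 ± 0.12), and the list had 2 lower without KO mouse 427. Of 18 genes of the zone around the central vein 4 rose and 1 fell (22.2% and 5.56% against 3.73% and 2.98%), with Slc13a3, a dicarboxylate carrier, at 1.58 ± 0.25, Rhbg, an ammonia channel, at 1.45 ± 0.25 and Slc1a4, an amino acid carrier, at least 3.05-fold higher. Averaged over its probe sets Slc13a3 had adjusted p = 0.173. Slc1a4 was not called without KO mice 427 or 429 or WT mice 546 or 547 (0.0617 to 0.131), nor Arg1 without KO mice 427 or 429 or WT mice 546 or 560 (0.0504 to 0.0936).

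Immediate early genes, which switch on within minutes of a stimulus, rose in 7 of 22 and fell in 0, 31.8% against 3.73% of all genes, and all 22 had a positive difference (median 0.91). Atf3, a stress-induced transcription factor, had 343.8, 64.1 and 255.8 units in KO livers and 20.1, 14.4 and 18.3 units in WT livers (10.2-fold, adjusted p = 0.00386). Dusp1, a phosphatase that switches off MAP kinases, had 2642, 1084 and 1805 units in KO livers and 321.1, 343.5 and 415.3 units in WT livers (4.83-fold, adjusted p = 0.00193). Klf6, a zinc finger factor, had 147.8, 72.8 and 112.1 units in KO livers and 35.1, 29.4 and 36.5 units in WT livers (3.18-fold, adjusted p = 0.00145). Zfp36, which speeds decay of cytokine mRNAs, rose by 1.28 ± 0.22. KO mouse 428 was the lowest KO mouse for all 4 genes and still lay above every WT mouse. The 3 others, named after their values were seen, were Fos (1867, 299.8 and 1182 units in KO livers and 58.1, 183.7 and 134.2 units in WT livers), Jun (2.50 ± 0.47) and Btg2 (2.41 ± 0.44). Leaving out KO mouse 428 gave 11 genes higher. On ND the list had 0 genes higher and 0 lower.

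The start regions of 3 of these genes are shown with capitals on TGACG, the core of the cAMP response element bound by CREB and ATF factors, searched on both strands, since Atf3 itself encodes such a factor. The windows have the same length and come from RefSeq in GRCm38.p6.
Atf3 (chr1:191183284-191183583, minus strand): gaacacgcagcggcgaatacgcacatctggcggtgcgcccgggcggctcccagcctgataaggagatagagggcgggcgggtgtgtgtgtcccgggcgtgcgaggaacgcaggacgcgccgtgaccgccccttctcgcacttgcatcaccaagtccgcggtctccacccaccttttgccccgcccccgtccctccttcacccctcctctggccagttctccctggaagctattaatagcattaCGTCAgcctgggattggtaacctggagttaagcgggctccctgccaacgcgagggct
Dusp1 (chr17:26508423-26508722, minus strand): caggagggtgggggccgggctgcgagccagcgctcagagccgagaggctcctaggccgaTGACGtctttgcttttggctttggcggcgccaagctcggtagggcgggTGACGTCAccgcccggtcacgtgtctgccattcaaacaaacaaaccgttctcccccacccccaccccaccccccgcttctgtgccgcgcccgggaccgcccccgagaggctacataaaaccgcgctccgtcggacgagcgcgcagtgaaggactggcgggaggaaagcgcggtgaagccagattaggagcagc
Btg2 (chr1:134079106-134079405, minus strand): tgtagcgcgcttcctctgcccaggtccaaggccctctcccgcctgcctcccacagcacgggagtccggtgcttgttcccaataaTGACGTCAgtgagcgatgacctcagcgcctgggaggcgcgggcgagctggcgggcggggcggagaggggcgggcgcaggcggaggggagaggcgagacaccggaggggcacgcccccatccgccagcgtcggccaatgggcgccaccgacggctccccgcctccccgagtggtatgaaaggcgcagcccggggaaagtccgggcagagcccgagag
The full element TGACGTCA, which reads the same on both strands and holds TGACG on each, begins 143 bases before the start of Dusp1 and 166 before that of Btg2. It is held by 1.79% of 32851 windows and TGACG by 20.8%. Of the other 4 immediate early genes that rose, the Fos window holds TGACG 2 times and those of Klf6, Zfp36 and Jun hold neither.

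Acute phase genes, which the liver secretes during inflammation, moved both ways. Of 31 tested 6 rose and 4 fell, 19.4% and 12.9% against 3.73% and 2.98% of all genes (median 0.02). Saa2, serum amyloid A2, had 1277, 1813 and 1806 units in KO livers and 115.7, 227.4 and 263.4 units in WT livers (8.45-fold, adjusted p = 0.0114). Orm2, an orosomucoid, had 584.8, 491.4 and 789.9 units in KO livers and 61.8, 130.8 and 140.8 units in WT livers (5.84-fold, adjusted p = 0.00111). Lcn2, lipocalin 2, had 868.1, 1052 and 832.6 units in KO livers and 212.5, 277.6 and 173.9 units in WT livers (4.20-fold, adjusted p = 0.000241). Orm3 rose by 2.44 ± 0.34, and Saa1 (1.95 ± 0.44) and Saa3 (1.36 ± 0.35), named after their values were seen, were the other 2. The KO livers were higher than every WT liver for these genes on HFD, whereas on ND 10 genes of the list were lower in KO livers (32.3% against 2.49% of all genes) and 0 were higher. The Saa and Orm genes are close copies of each other. The 4 falls were 0 without KO mouse 427 or KO mouse 429, and 1 without WT mouse 546, WT mouse 547 or WT mouse 560. Saa1 lost the call without KO mice 428 or 429 or WT mouse 546 (0.0581 to 0.079), and Saa3 without any array but KO mouse 427 (0.0723 to 0.112).

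Inflammatory and interferon-induced genes rose in smaller numbers. Of 24 inflammatory genes 3 rose and 0 fell, 12.5% against 3.73% of all genes (median 0.51). Il1b, interleukin 1 beta, had 85.8, 77.6 and 69.6 units in KO livers and 17.5, 25.5 and 20.5 units in WT livers (3.71-fold, adjusted p = 0.00963). Cxcl10, an interferon-induced chemokine, had 130, 106.7 and 92.0 units in KO livers and 40.2, 33.0 and 26.0 units in WT livers (3.33-fold, adjusted p = 0.01). Tnfaip3, which restrains NF-kappaB, rose by 1.04 ± 0.27. Interferon-induced genes rose in 4 of 30 and fell in 0, 13.3% against 3.73% (median 0.37): Gbp6 by 1.90 ± 0.30, Ifi27l2a by 1.66 ± 0.31, Gbp2 by 1.498 ± 0.298 and Igtp by 0.77 ± 0.17. Leaving out KO mouse 427 left 1 and 2 genes higher in these lists, with Cxcl10 at adjusted p = 0.0556, Tnfaip3 at 0.169, Gbp2 at 0.0615 and Igtp at 0.0753. Igtp also lost the call without WT mouse 546 (0.071) or WT mouse 547 (0.059), and Tnfaip3 without each other array but WT mouse 560 (0.0554 to 0.124). The neutrophil markers S100a8, S100a9, Ngp and Camp summed to 149.4 to 181 units in KO livers and 47.4 to 145.3 in WT livers, and their part was not tested.

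Among 31 Kupffer cell and macrophage genes 7 rose and 1 fell, 22.6% against 3.73% of all genes (median 0.58). Cd52, a surface glycoprotein of leukocytes, had 382.4, 424.1 and 287.6 units in KO livers and 134.2, 156.9 and 126 units in WT livers (2.60-fold, adjusted p = 0.000906). Ctss, a lysosomal protease, rose by 0.55 ± 0.09, Cd68, a lysosomal protein of macrophages, by 0.998 ± 0.193 and Lyz2, lysozyme, by 0.70 ± 0.17, while the scavenger receptor gene Cd163, named after its values were seen, fell by 0.82. The resident Kupffer cell markers Clec4f and Vsig4 were at -0.32 (adjusted p = 0.493) and -0.19 (0.59). KO mouse 428 stood apart for 2 others, with Adgre1 at 681.4 units and Marco at 412.5, against 143.0 to 194.8 and 57.3 to 69.4 in the other KO livers and 152.2 to 186.4 and 23.6 to 125.1 in WT livers. The 6 Kupffer cell markers Clec4f, Vsig4, Cd5l, Timd4, Marco and Adgre1 summed to 2647 to 4303 units in KO livers and 2402 to 2922 in WT livers. The list had 2 genes higher without KO mouse 427, 4 without KO mouse 428, 3 without WT mouse 546 and 4 without WT mouse 560. Cd68 was at adjusted p = 0.0513 without KO mouse 427, Lyz2 lost the call without any KO mouse (0.0534 to 0.12) or WT mouse 546 (0.107), and Cd163 without KO mouse 427 (0.126), KO mouse 428 (0.092) or WT mouse 547 (0.11).

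Genes of lipid-associated macrophages, which gather around fat-laden cells, rose in 4 of 16 and fell in 0, 25.0% against 3.73% of all genes (median 0.21). Gpnmb was at 77.2, 28.3 and 67.2 units in KO livers and 8.02, 12.2 and 3.05 units in WT livers, at least 4.07-fold higher, with an adjusted p barely under the threshold and a call lost without any one array (0.0563 to 0.182). Lgals3, galectin 3, had 539.1, 230.8 and 458.4 units in KO livers and 128.2, 149.2 and 118.1 units in WT livers (2.93-fold, adjusted p = 0.0132). Ctsk, a protease, was at least 1.86-fold higher and Ctsd, a lysosomal protease, rose by 0.37 ± 0.09. Neither KO mouse 427 nor KO mouse 429 could be left out with any of the 4 still called, and the list had 2 genes higher without WT mouse 546, 1 without WT mouse 547 and 1 without WT mouse 560.

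Stellate cell and matrix genes rose in 6 of 26 and fell in 0, 23.1% against 3.73% of all genes (median 0.59), and 5 to 8 were called without each array in turn. Col3a1, a fibrillar collagen gene, had 976.9, 434.0 and 766.4 units in KO livers and 125.5, 109.5 and 127.8 units in WT livers (5.70-fold, adjusted p = 0.00026). Col1a2 had 520.8, 266.5 and 552.6 units in KO livers and 85.3, 101.4 and 102.3 units in WT livers (4.43-fold, adjusted p = 0.000284). Vim, the intermediate filament vimentin, rose by 1.32 ± 0.20, and Col14a1 by 1.24 ± 0.18, or 0.59 (adjusted p = 0.302) over the mean of its probe sets. KO mouse 428 was the lowest KO mouse for both fibrillar collagens and still above every WT mouse. The stellate markers Col1a1, Col3a1, Dcn, Lrat, Reln and Pdgfrb summed to 3425 to 4508 in KO livers and 2651 to 3136 in WT livers. Most of that gap lay in Col3a1, with means of 725.8 and 120.9 units in KO and WT livers, and Dcn (2270 and 1757, adjusted p = 0.151). Reln went the other way, with means of 737.5 and 838.8 units (adjusted p = 0.347). The endothelial markers Pecam1, Cdh5, Kdr, Stab2, Clec4g and Oit3 summed to 1401 to 1552 in KO livers and 1805 to 1947 in WT livers. That sum was carried by Clec4g, which averaged 707.9 units in KO livers and 1024 in WT livers (-0.55, adjusted p = 0.09), and of 19 tested endothelial genes 1 rose and 0 fell (5.26% higher against 3.73% of all genes, median 0.01). The gene that rose was Pecam1, at least 1.67-fold (adjusted p = 0.0148). Lrat, a stellate cell marker, was at 0.29 (adjusted p = 0.394). The part of these cell types in the results was not tested.

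Of 14 cell cycle genes 3 rose and 1 fell, 21.4% against 3.73% higher, and all 4 encode subunits of the helicase that licenses DNA replication. Mcm5 rose by 2.06 ± 0.32, Mcm2 by 1.58 ± 0.39 and Mcm4 by 0.90 ± 0.22, while Mcm7 fell by 0.53. Other tested probe sets of Mcm7 gave -0.23, -0.29 and -0.42, of which none passed. Over the mean of its probe sets Mcm7 had adjusted p = 0.139, and with a pseudocount of 16 Mcm4 had adjusted p = 0.161. Mcm2 lost the call without KO mice 427 or 428 or WT mice 547 or 560 (0.0733 to 0.117), Mcm4 without any array but WT mouse 547 (0.0518 to 0.139), and Mcm7 without KO mice 427 or 429 or WT mouse 546 (0.0691 to 0.0799). The list had 1 gene higher without KO mouse 427, KO mouse 428 or WT mouse 560.

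Of 21 circadian clock genes and 11 antigen presentation genes limma called 0, and 1 of 32 respiratory chain and citric acid cycle genes rose (background 6.71%). Among 25 insulin signalling genes Pik3ap1 rose, and Pik3ca and Rictor fell by 0.55 and 0.53 (12% called against 6.71% of all genes). The 4 other probe sets of Pik3ca gave -0.37, -0.13, -0.06 and 0.07 and the 3 of Rictor -1.06, -0.61 and 0.35, of which none passed, and over the mean of probe sets their adjusted p were 0.558 and 0.782. Pik3ca lost the call without KO mouse 427 (0.0635) and Rictor without any array but WT mouse 560 (0.0696 to 0.141).

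On ND, 247 genes were higher in KO than in WT livers (2.22%) and 277 were lower (2.49%), 4.71% in all. Of the 747 genes called on HFD 117 were called in the same direction on ND, which is 15.7% of the HFD calls and 22.3% of the 524 ND calls, and 8 in the opposite direction. Called or not on ND, 558 of the 747 (74.7%) had a difference of the same sign there. That share among all tested genes was not counted. The ND counts were 91 higher and 112 lower without KO mouse 718, 139 and 181 without KO mouse 719, 95 and 102 without KO mouse 720, and 99 and 97 without WT mouse 687. The groups on the 2 diets were different mice. Moxd1 (at least 87.5-fold lower on ND), Cyp2c37 (log2 -5.92), Cyp2c39 (5.50), Pik3ap1 (3.22), Ces1g (3.56) and Enho (-2.14) were among those called on both diets. Cidea was not among them, with 2.41, 5.2 and 14.5 units in KO livers and 13.3, 0.98 and 4.29 units in WT livers on ND, all but 1 of each group at or under the filter level.

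The genotype effect differed between the diets, by the interaction in the same limma fit, for 110 genes (0.989%), 69 higher on HFD (0.62%) and 41 lower (0.369%). Of the 747 genes called on HFD 72 had a called interaction. Cidea had a called interaction (adjusted p = 0.0159, or 0.0514 without KO mouse 427), whose size depends on how low signals are treated since WT livers on HFD and both groups on ND were dim, at 7.57 in the fit and 5.64 with a pseudocount of 16. Mogat1 had one of 3.30 ± 0.49 (adjusted p = 0.012). Orm2 (6.19 ± 0.49), Saa2 (5.98 ± 0.88) and Lcn2 (4.22 ± 0.33) were higher in KO livers on HFD and lower in KO livers on ND. Lcn2 averaged 917.4 units in KO livers and 221.3 in WT livers on HFD, and 254.7 in KO livers and 1125 in WT livers on ND, so the order of the genotypes was turned round. Hsd3b5 had an interaction of -4.06 ± 0.61 (adjusted p = 0.012), with 376.3 units in KO livers and 127.8 in WT livers on ND. Adh6-ps1 (-2.21), BC024139 (-1.98) and Asic5 (-1.92), a gene of the acid-sensing ion channel family, were the other 3 of the largest negative interactions. Asic5 did not pass on HFD (0.02, adjusted p = 0.974) and was higher in KO livers on ND (1.94). The interaction counts were 28 higher and 14 lower without KO mouse 427, 23 and 13 without KO mouse 429, 38 and 19 without WT mouse 546, and 33 and 16 without WT mouse 547. Among ND mice they were 29 and 13 without KO mouse 718, 44 and 27 without KO mouse 719, 25 and 10 without KO mouse 720, and 34 and 21 without WT mouse 687.

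**Figure D5:**
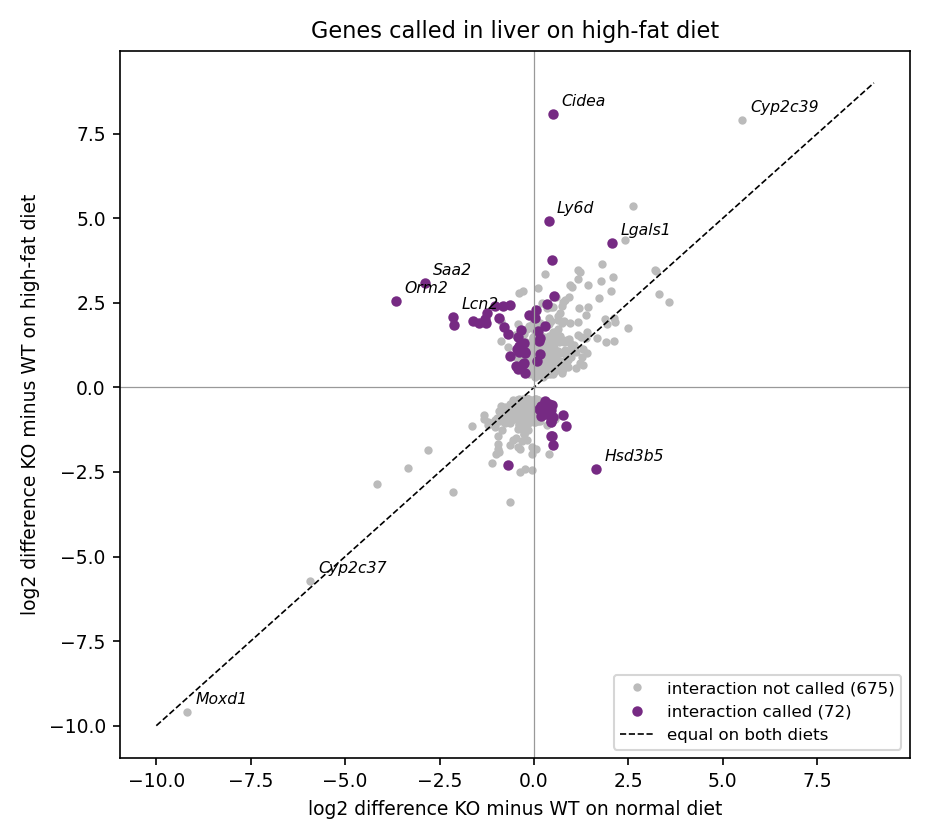
Log2 difference of KO minus WT livers on high-fat diet (vertical) against that on normal diet (horizontal) for the 747 genes called on high-fat diet, with the 72 whose interaction was called in purple and a dashed line of equality. Moxd1, Cyp2c37 and Cyp2c39 changed in the same direction on both diets, Cidea and Ly6d differ from 0 on high-fat diet alone by the called tests, and Orm2, Saa2 and Lcn2 lie in the upper left, higher in KO on high-fat diet and lower on normal diet.

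The genotype effect on HFD was then set against that in the epididymal fat of the same 6 mice, for 10119 genes tested in both tissues. It differed for 895 (8.84%), 539 higher in liver (5.33%) and 356 lower (3.52%), or 411 and 218 with mouse as a block, and for 213 of the 679 genes called in liver that entered the joint fit. These counts were 304 to 416 higher and 145 to 207 lower without the liver of KO mouse 427, 428 or 429 or WT mouse 546 or 547, or without the fat of KO mouse 429 or WT mouse 546 or 560. Cidea rose in liver and fell in fat, with 21.9, 20 and 17.6 units in KO fat and 51.4, 157.0 and 478.3 units in WT fat (difference of differences 11.1 in the fit, adjusted p = 0.000421, and 8.04 with a pseudocount of 16). Mogat1 did likewise, with 27.2, 67.1 and 29.1 units in KO fat and 178.2, 148.4 and 206.6 units in WT fat (5.99 ± 0.51, adjusted p = 0.000246). Scd1 and Lgals1 were bright in fat of both genotypes, Scd1 at 6459 and 6823 and Lgals1 at 8232 and 8405 units on average in KO and WT fat, and their effects differed by 3.56 ± 0.35 and 4.30 ± 0.19. Cd36 (2.53 ± 0.18), Plin4 (4.20 ± 0.58), Cidec (3.03 ± 0.36) and Me1 (1.94 ± 0.23) also had the higher effect in liver. Me1 rose in fat too, by 1.09 (adjusted p = 0.00107). Pik3ap1 rose in both tissues, with 594.6, 588.4 and 1007 units in KO fat and 32.8, 26.5 and 31.7 units in WT fat, and its effect was lower in liver by 1.09 ± 0.30 (adjusted p = 0.0425, and 0.0532 with mouse as a block).

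Among the other large tissue differences, Adgrg2, an adhesion receptor gene, was higher in KO livers (1.99 in the liver fit, adjusted p = 0.00599) and lower in KO fat, a difference of 4.44 ± 1.12. Acsm3, a medium-chain acyl-CoA synthetase gene, fell in KO fat by 4.27 and did not pass in liver (0.17, adjusted p = 0.498), a difference of 4.44 ± 0.94. Moxd1 fell in liver and did not pass in fat, where 1 KO and 2 WT arrays were above the filter level of 19.3 units (-7.27 in the fit and -5.11 with a pseudocount of 16). Cxcl14, a chemokine gene, had 16.3, 10.5 and 10.7 units in KO livers and 86.0, 78.2 and 31.9 units in WT livers (at least 4.28-fold lower, adjusted p = 0.0558, not called in the liver fit), and rose in KO fat (difference -4.77 ± 0.81). Its other tested probe set gave -0.22 ± 0.79 in liver (adjusted p = 0.907). Slc25a13, a mitochondrial carrier gene (-3.79 ± 0.62), and B4galnt1, of ganglioside synthesis (-4.12 ± 1.11, adjusted p = 0.0402, and 0.0543 with mouse as a block), rose in KO fat and did not pass in liver. The tissue difference of Pik3ap1 lost its call without any array but that of the liver of WT mouse 546 or the fat of KO mice 427 and 428 (adjusted p = 0.0626 to 0.0959). That of Adgrg2 was kept without the liver of WT mouse 547, the fat of KO mouse 427 or the fat of WT mouse 547 and lost otherwise (0.05 to 0.0734), and that of B4galnt1 was lost without any array but the fat of KO mouse 428 or WT mouse 547 (0.0556 to 0.087).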

How the data were processed

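RNA of liver and epididymal fat of 12 mice, 3 per genotype and diet, was hybridised to 24 Affymetrix arrays. The deposited values are linear MAS5 signal intensities, 1 per probe set and array, per the submitters' processing notes, and the trimmed mean of each liver array was about 100.05. The sources used here give neither detection calls nor the software version, and whether a dim probe set was above background is unknown.

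Probe sets were named through the platform annotation. Of the probe sets 34945 had 1 symbol, 932 several and 9160 none, and 64 were controls, and those with 1 symbol gave 18193 genes, each read by its brightest probe set. Signals were raised to a floor of 1.1 (10th percentile), taken to log2, and kept if the gene's mean was above the median probe-set mean of 12.95 units. limma 3.58.1 (lmFit, eBayes with trend, R 4.3.3) was fitted to the 12 liver arrays with 4 group means, and all p-values are limma's with Benjamini-Hochberg adjustment over all tested genes. The tissue comparison was fitted to the liver and fat arrays on HFD together. The fit was tested on simulated data. Where a group's mean signal lay under 12.95 units, a fold is a lower bound, the brighter group's mean log2 signal against the dimmer one's with its arrays raised to that level. This bound was defined with the values in view, and a fitted log2 value of such a gene depends on the floor. Each tissue was scaled and filtered within its own arrays, and the authors' signals of different probe sets were not compared.

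The text names Ffar4, the 12 largest rises and falls among called genes whose groups did not overlap, up to 4 genes of smallest p per list, and the 4 largest differences in each direction between diets and tissues. The genes, lists and comparisons were chosen with earlier results of these data known. Liver and fat of 1 mouse share its number, which pairs them, and the correlations of their deviations were 0.0198 to 0.111. Promoter windows are RefSeq's of GRCm38.p6, aligned and searched with Biopython 1.88. The alternatives replaced the scaling by quantile normalization, the floor by a pseudocount of 16 or by nothing, and the brightest probe set by the mean of probe sets or by every probe set. Others used no filter, the 6 arrays alone, no variance trend, a mouse block, or left out each array in turn. Labels name mice and give no batch.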

Additional observations from a re-analysis of the deposited data

Results flagged for a closer look

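Of the genes named above, 28 had a KO minus WT difference in liver that itself differed between HFD and ND by the interaction of the limma fit (adjusted p under 0.05). Values are log2 differences on HFD minus those on ND. Among lipid genes these were Cidea at 7.57, Cidec at 3.44 and Mogat1 at 3.30, higher on HFD, and Cyp4a31 at -1.61, Angptl4 at -1.16 and Ces2a at -0.998, lower on HFD. The acute phase genes were Orm2 at 6.19, Saa2 at 5.98, Lcn2 at 4.22, Saa1 at 3.55 and Orm3 at 3.09, all higher on HFD. Matrix and macrophage genes were Col1a2 at 2.27, Vim at 1.60, Cd52 at 1.26 and Ctss at 0.96, and immediate early genes Btg2 at 3.23, Dusp1 at 2.21 and Klf6 at 1.55. Others that were higher on HFD were Ly6d at 4.54, Lgals1 at 2.19, Slc13a3 at 2.27 and Gstm2 at 2.02. Those lower on HFD were Hsd3b5 at -4.06, Adh6-ps1 at -2.21, BC024139 at -1.98, Asic5 at -1.92, Slco1a1 at -1.90 and Mcm7 at -0.80. Of the 28, 10 were called under every alternative, namely Asic5, Ctss, Gstm2, Hsd3b5, Lcn2, Lgals1, Mogat1, Orm2, Orm3 and Saa2. Called least often under the 17 alternatives were Klf6 and Mcm7 (3 each), Dusp1 (4), Cd52 (5), Ces2a (6) and Btg2 (7).

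For 15 named genes the KO minus WT difference on HFD differed between liver and fat of the same mice, given as log2 in liver minus fat. The higher effect in liver was found for Cidea at 11.07, Mogat1 at 5.99, Adgrg2 at 4.44, Acsm3 at 4.44, Lgals1 at 4.30, Plin4 at 4.20, Scd1 at 3.56, Cidec at 3.03, Cd36 at 2.53 and Me1 at 1.94. The lower effect in liver was found for Moxd1 at -7.27, Cxcl14 at -4.77, B4galnt1 at -4.12, Slc25a13 at -3.79 and Pik3ap1 at -1.09. Of the 15, 11 were called under every alternative that gave a value (without the floor Moxd1 did not enter the joint fit). The exceptions were Adgrg2, B4galnt1, Cxcl14 and Pik3ap1. The sizes for Cidea and Moxd1 depend on how low signals are treated, since a group of each was under the filter level. Causes were not tested.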

How the results depend on the processing

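Of 129 named genes called on HFD, 71 were called under each of the 13 alternatives that gave them a value (the mean of probe sets left Adgrg2, Gpnmb, Mcm5, Slc1a4, Themis and Tnfaip3 untested), and 58 lost the call under at least 1, of which 46 did so without KO mouse 427 and 23 with the mean of probe sets. The difference changed sign in 1 named gene, Asic5, which was not called on HFD: it was -0.09 without KO mouse 428, -0.02 without KO mouse 429 and -0.19 without WT mouse 560, in a range of -0.19 to 0.16 over the arrays left out. When 1 array was left out, 167 to 413 genes were higher and 111 to 270 lower on HFD (415 and 332 with all arrays), 75 to 126 listed genes were called (138 with all), 91 to 313 were higher and 97 to 256 lower on ND, 23 to 77 interactions were higher and 10 to 50 lower, and 304 to 644 tissue differences were higher and 145 to 419 lower. Fewer samples enter these fits, and why mouse 427 weighs most was not tested. With no filter the interactions were 36 higher and 21 lower. With the mean of probe sets 219 genes were lower on HFD, 143 higher and 166 lower on ND, 31 and 21 interactions were higher and lower, and 312 and 219 tissue differences were higher and lower. Fitting only the 6 arrays left 221 lower on HFD and fitting without a variance trend left 196. With mouse as a replicate block, which pairs liver and fat of 1 mouse, tissue differences were 411 higher and 218 lower, and B4galnt1 (adjusted p = 0.0543) and Pik3ap1 (0.0532) lost the call. Pik3ap1 also lost it with quantile normalization (0.0595), no filter (0.0675) and the pseudocount (0.141), B4galnt1 with no filter (0.0698) and no floor (0.0528), Adgrg2 with no filter (0.0541) and Cxcl14 with the mean of probe sets (0.0557). KO and WT livers share no mouse number, so no paired analysis was possible between them. The cause of these changes was not tested. The median difference of all genes stayed between -0.04 and -0.01 under each scaling tried. Dim genes limit what can be seen, since detection calls were not used here.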
